A study of Homo sapiens with 6 samples.

Results

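Cadherins and protocadherins are calcium-dependent adhesion receptors of the cell surface. Their genes were taken from the expression table by symbol alone: CDH followed by digits, or PCDH followed by letters or digits. The rule found 96 of 58884 genes and used no measured value. It took in 37 genes that stand alone in the genome and 59 members of the clustered protocadherins, of which 16 were in the alpha (PCDHA), 19 in the beta (PCDHB) and 24 in the gamma (PCDHG) cluster. RNA came from wild-type (WT) DBTRG, an established human glioblastoma cell line, and all cells shared that background with no drug or genetic change named. The cells were harvested after 5 days on a rigid dish, in 2D culture, or in a soft gel, in 3D culture, with 3 libraries in each group. Stiffness and dimension changed together between the groups, so these cannot be told apart. Whether the libraries of a group came from separate cultures is not stated, and the p-values below therefore measure only the spread between libraries.

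Classical cadherins bind the same kind of cadherin on the next cell and hold actin through beta-catenin and alpha-catenin inside the cell. Type I members, such as N-cadherin, have a conserved tryptophan in their first extracellular repeat, and type II members have a pair of them. The delta protocadherins lack the catenin-binding tail and act mainly in the nervous system, where several bind the WAVE actin regulatory complex. Clustered protocadherins are chosen by alternative promoters, and the combination of isoforms on a neuron serves as a label for telling self from other. The alpha and gamma genes each join 1 variable first exon to constant exons shared by their cluster, whereas a beta gene is essentially a single coding exon.

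Libraries held 20911363 to 25901499 counts. A gene with no count could be present at up to 3 counts, or between 0.116 and 0.143 CPM, which are counts relative to the whole library. CPM values below were scaled by trimmed mean of M-values (TMM), and levels of different genes were compared as deposited TPM (transcript abundance scaled to gene length and library) or, for summed sets, also as CPM per kb. Shares of a cluster's counts are not scaled to length. Glioma-associated VIM, CD44, NES and SOX2 were abundant, GFAP was at 0.32 to 1.36 TPM, and OLIG2 was listed at 0 in all libraries. In soft gel VIM and NES fell (edgeR adjusted p = 0.0172 and 0.0211), SOX2 and CD44 rose (edgeR adjusted p = 0.00509 and 0.0371), and GFAP was not called. Markers of other cell types were also read. The 6 neuronal markers summed to 8.99 to 15.67 TPM over all libraries, mostly SNAP25 (3.93 to 10.09 TPM) and GAD1 (2.53 to 5.06 TPM), and the 5 epithelial markers to 3.25 to 4.30 TPM, mostly CLDN4 (1.72 to 3.08 TPM), while EPCAM stayed at or below 0.13 TPM. Of the oligodendrocyte markers MBP was at 31.42 to 43.62 TPM, and MOG and MAG were at or below 0.18 TPM. The 5 endothelial markers summed to 0.74 to 2.08 TPM and the 5 fibroblast markers to 3.59 to 6.28 TPM, with DCN listed at 0. Of the neuronal, oligodendrocyte, epithelial and endothelial markers 9 had counts enough for a test, and the lowest edgeR adjusted p among them was 0.0604 (KDR). Among fibroblast markers LUM rose and COL1A1 and PDGFRB fell. PTPRC, which defines leukocytes, stayed at or below 0.31 TPM. CD68, which is also a lysosomal gene of other cells, rose from between 8.81 and 11.94 TPM on the rigid dish to between 35.11 and 43.27 TPM in soft gel. The 5 leukocyte markers summed to 9.19 to 12.47 TPM and 36.00 to 44.37 TPM in the same order, and the part of such cells in the results below was not tested. In bulk RNA, fewer cells of a kind and less RNA per cell cannot be told apart.

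Of the 96 genes, 60 had enough counts to be tested, and 22 of them (36.7%) were called at an adjusted p below 0.05 by edgeR's quasi-likelihood test, against 28.6% of the 16098 genes tested in all. In soft gel 19 were higher, where 15.4% of all tested genes were, and 3 were lower, where 13.2% were. The groups did not overlap in 27 of the 60 genes, where 44.6% of all tested genes had no overlap. The soft gel libraries lay above all rigid dish libraries for 24 of these (23.4% of all tested genes) and below them for 3 (21.2%). The median log2 fold change of the 60 genes, soft gel over rigid dish, was 0.58, beside 0.05 for all tested genes. The calls were unevenly spread: 12 of 14 tested beta protocadherins (85.7%) rose, 1 of 22 tested gamma genes fell, and of 23 tested non-clustered genes 7 rose and 2 fell. Of the 22 calls, 15 were kept under all 11 alternative settings run, and 16 were kept under all 6 settings that left out 1 library.

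The beta cluster, at chr5:141051135-141249365 on hg38, gave the most concerted change. Summed over its 19 genes, the cluster was at 27.7, 33.6 and 34.7 CPM in rigid dish libraries and 79.7, 79.9 and 67.0 CPM in soft gel. The lowest soft gel library lay far above the highest rigid dish library. The means were 32.0 ± 3.79 and 75.5 ± 7.36 CPM (SD, n = 3 each), a 2.36-fold rise (log2 fold change 1.24, standard error (SE) 0.13, edgeR adjusted p = 0.000681). This call held under each of the alternatives run, with a log2 fold change of 1.14 to 1.27. As TPM, which accounts for gene length, the sum went from 13.1 ± 0.487 to 32.5 ± 4.37. The gamma cluster next to it did not pass the test, and the log2 ratio of the beta to the gamma sum moved from -2.95 ± 0.16 to -1.67 ± 0.21 (two-sided exact permutation p = 0.1, the smallest that 3 against 3 libraries allow).

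**Figure D1:**
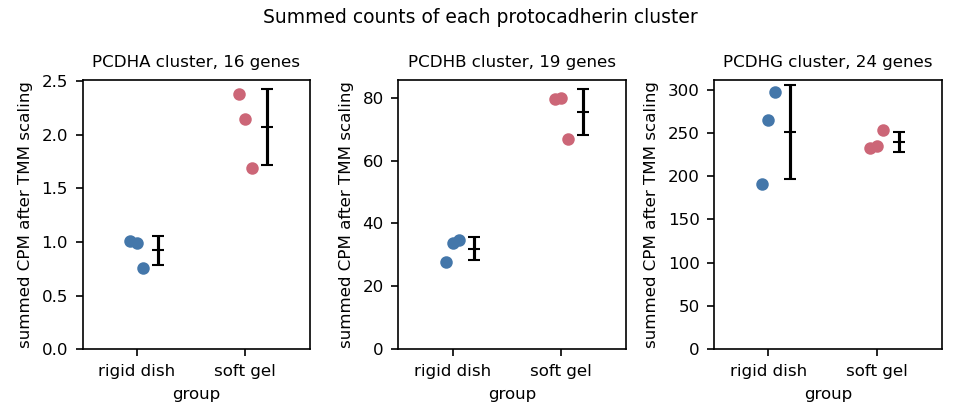
Summed CPM (vertical axis, starting at 0) of the PCDHA, PCDHB and PCDHG clusters in the rigid dish and soft gel groups. Points are the 3 libraries of a group, and the bars beside them are the mean ± SD. The PCDHB sums do not overlap between the groups, while the PCDHG sums in soft gel (232 to 253 CPM) lie inside the rigid dish range (191 to 297 CPM).

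Promoter sequences were compared because clustered protocadherins are chosen by promoter and the beta genes moved together. The RefSeq promoter table (GRCh38.p14, 250 bases before to 50 after each start) held 70 of the 96 genes. For each cluster 8 letters shared by many of its promoters were chosen, and then searched for on both strands of all 34943 promoters in the table. The beta letters were GTGGCGCT, in 13 of 14 beta promoters (92.9%) and in 400 of all promoters (1.14%), and they began 1 to 83 bases upstream of the start. The exception was PCDHB1, which had too few counts to be tested. The alpha letters were ATGTCGCT, in 9 of 13 alpha promoters and 0.232% of all, and the gamma letters were GCCGCTGT, in 11 of 20 gamma promoters and 1.63% of all. The 3 words overlap in CGCT, the core of the conserved element known in protocadherin promoters, but those 4 letters alone were in 69.9% of all promoters. Because each word was chosen from the cluster it describes, its share there is a description.

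The windows below, 60 bases each on the plus strand of chr5 in GRCh38.p14, show the shared letters in capitals. They are given for PCDHB4 (chr5:141121709-141121768), PCDHB5 (chr5:141135165-141135224) and PCDHB9 (chr5:141187060-141187119), which rose, and for PCDHB2 (chr5:141094530-141094589), which did not pass the test. PCDHA4 (chr5:140806965-140807024) and PCDHGC3 (chr5:141475868-141475927) stand for the other clusters.
PCDHB4: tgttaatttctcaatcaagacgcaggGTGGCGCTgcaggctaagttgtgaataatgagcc
PCDHB5: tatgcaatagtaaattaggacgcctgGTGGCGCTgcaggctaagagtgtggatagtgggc
PCDHB9: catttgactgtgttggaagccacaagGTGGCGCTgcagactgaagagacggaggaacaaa
PCDHB2: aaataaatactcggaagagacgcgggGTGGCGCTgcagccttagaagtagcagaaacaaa
PCDHA4: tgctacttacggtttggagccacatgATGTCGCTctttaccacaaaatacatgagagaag
PCDHGC3: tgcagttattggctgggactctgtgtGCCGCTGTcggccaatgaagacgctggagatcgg
The 8 letters did not separate the beta genes that rose from PCDHB2, which holds the same word at a similar place.

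Of the 12 beta genes that rose, PCDHB4 had the largest fold change and PCDHB14 the smallest adjusted p. PCDHB4 (chr5:141121799-141125623, plus strand) was at 0.150, 0.215 and 0.269 CPM in rigid dish libraries and 1.73, 1.5 and 1.03 CPM in soft gel. It was thus close to the limit of detection on the rigid dish and above 1 CPM in every soft gel library (log2 fold change 2.74, SE 0.43, edgeR adjusted p = 0.00313). PCDHB14 (chr5:141222932-141227759, plus strand) gave 3.81, 3.87 and 3.76 CPM in rigid dish libraries and 13.1, 14.1 and 10.5 CPM in soft gel. Its rigid dish libraries were nearly the same and its soft gel libraries were all far higher (3.29-fold, log2 fold change 1.72, SE 0.18, edgeR adjusted p = 0.000565). PCDHB9 had the highest TPM of the beta genes in soft gel, 7.43 ± 1.27, against 3.15 ± 0.574 on the rigid dish. In CPM it stood at 4.07, 4.35 and 4.39 in rigid dish libraries and 14.2, 13.1 and 10.3 in soft gel (chr5:141187127-141191541, plus strand; log2 fold change 1.55, SE 0.18, edgeR adjusted p = 0.000991).

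PCDHB5, PCDHB7 and PCDHB8 also rose more than 3-fold from below 1 CPM, with no overlap between the groups. PCDHB5 had 0.935, 0.947 and 0.672 CPM in rigid dish libraries and 3.86, 3.00 and 3.00 CPM in soft gel (log2 fold change 1.94, SE 0.28, edgeR adjusted p = 0.00233). PCDHB7 had 0.411, 0.732 and 0.582 CPM on the dish and 1.93, 2.27 and 2.11 CPM in the gel (log2 fold change 1.87, SE 0.34, edgeR adjusted p = 0.00514). PCDHB8 had 0.785, 0.818 and 0.358 CPM on the dish and 2.22, 2.76 and 2.06 CPM in the gel (log2 fold change 1.83, SE 0.37, edgeR adjusted p = 0.00777). These 3 genes and PCDHB4 lie between PCDHB3 and PCDHB16 on the chromosome. PCDHB10 rose from 2.36, 2.24 and 3.85 CPM on the dish to 8.39, 8.23 and 6.0 CPM in the gel (log2 fold change 1.43, edgeR adjusted p = 0.00553). PCDHB13 rose from 2.95, 3.01 and 3.13 CPM on the dish to 8.84, 7.70 and 5.72 CPM in the gel (log2 fold change 1.29, edgeR adjusted p = 0.00382). Both kept the call under every setting run, as did PCDHB4, PCDHB5, PCDHB7, PCDHB8, PCDHB9 and PCDHB14.

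The other 4 calls in the beta cluster did not hold in every fit that left out a library, although their groups did not overlap. PCDHB11 was at 0.822, 1.98 and 1.93 CPM in rigid dish libraries and 3.62, 4.26 and 4.22 CPM in soft gel (log2 fold change 1.36, edgeR adjusted p = 0.0168), and lost the call without soft gel 2 (adjusted p = 0.0683). PCDHB15 was at 1.38, 3.31 and 2.78 CPM on the dish and 5.63, 5.55 and 4.64 CPM in the gel (log2 fold change 1.09, edgeR adjusted p = 0.0286), and lost it in the fits that lacked soft gel 1, soft gel 2 or rigid dish 3 (adjusted p = 0.0966, 0.0991 and 0.0579). The lowest expressed of them were PCDHB3 and PCDHB16. PCDHB3 was at 0.486, 0.473 and 0.358 CPM on the dish and 1.03, 1.05 and 1.27 CPM in the gel (log2 fold change 1.33, edgeR adjusted p = 0.0254), and PCDHB16 at 1.08, 0.603 and 0.940 CPM on the dish and 2.14, 1.82 and 1.83 CPM in the gel (log2 fold change 1.13, edgeR adjusted p = 0.0309). Both lost the call when any library but rigid dish 1 was left out, with edgeR adjusted p of 0.0723 to 0.106 for PCDHB3 and 0.0554 to 0.114 for PCDHB16. PCDHB3 also lost it without the filter on low counts (edgeR adjusted p = 0.0634).

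PCDHB2 and the pseudogene PCDHB17P were the tested beta genes without a call, and both were named after their values were seen. PCDHB2 (chr5:141094578-141098703, plus strand) was the most abundant beta gene on the rigid dish by TPM (3.49 ± 0.594). It was at 7.36, 10.8 and 10.6 CPM in rigid dish libraries and 9.95, 11.8 and 13.4 CPM in soft gel, with overlap (log2 fold change 0.29, 95% interval -0.16 to 0.73, edgeR adjusted p = 0.290). That interval lies below the fold change of all 12 genes that rose. As a share of the cluster's counts, PCDHB2 made up 26.5%, 32.2% and 30.4% in rigid dish libraries and 12.5%, 14.8% and 19.9% in soft gel (two-sided exact permutation p = 0.1, the smallest possible here). A lower share follows when a gene is picked for not rising with its cluster, so that p is no separate result. PCDHB17P was at 0.598, 0.215 and 1.03 CPM on the dish and 1.48, 1.30 and 0.609 CPM in the gel, with overlap (log2 fold change 0.89, edgeR adjusted p = 0.247).

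**Figure D2:**
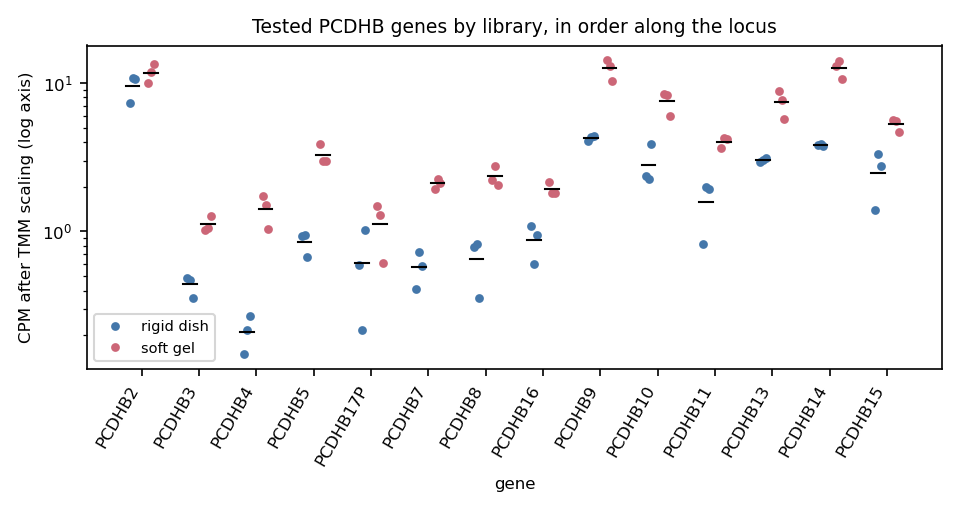
CPM after TMM scaling (log axis) of the 14 tested PCDHB genes, ordered along chromosome 5. Points are libraries and black lines are group means. The groups are apart for 12 genes and overlap for PCDHB2 and PCDHB17P.

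Beta genes share less sequence with each other than alpha or gamma genes do. All 19 beta genes had at most 2 exons in every GENCODE transcript, and 14 shared no exonic base with another gene on the same strand (highest share 9.43%). Their sequences do resemble each other: 0% to 34.6% of a gene's 75-base words were found in another of the 96 genes (median 8.44%, against 48.8% in the alpha and 42.4% in the gamma cluster), with PCDHB8 (34.6%), PCDHB10 (29.1%) and PCDHB13 (18.5%) among the highest. No source used here says how the authors' counting treated such reads. The beta genes that rose lay on both sides of that median. PCDHB14 (7.25%) and PCDHB4 (7.61%), the genes with the smallest p and the largest fold, were below it, and PCDHB8, PCDHB10 and PCDHB13 above it. The part of such reads in the rise was not tested. Among tested beta genes, those on the opposite strand overlapped 16.3% of the exonic bases of PCDHB16, 15.0% of PCDHB2, 14.7% of PCDHB5 and 10.6% of PCDHB3. The strand setting is not given, so such reads cannot be told apart.

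Counts over olfactory receptor genes, which are silent in most tissues, also differed between the groups. A set of 405 olfactory receptor genes, chosen after the data were seen, summed to 0.0177, 0.0151 and 0.0127 CPM per kb in rigid dish libraries and 0.0271, 0.0334 and 0.0241 in soft gel. The soft gel libraries were all higher. On that scale the beta cluster went from 0.418 ± 0.050 to 0.987 ± 0.096 CPM per kb (SD, n = 3 each), far above the receptor genes in either group. The alpha cluster went from 0.0108 ± 0.0016 to 0.0244 ± 0.0042. Its length was summed over its genes, so their shared constant exons were counted once for each gene, which lowers these values. Whether the alpha cluster lay above or below the receptor genes therefore cannot be told. The part of this low signal in either cluster's change was not tested.

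The alpha cluster (chr5:140786136-141012347) was barely detected. Its 16 genes together had 26.76, 22.3 and 16 estimated counts in rigid dish libraries and 58.05, 52.72 and 36.33 in soft gel. As CPM these were 1.01, 0.990 and 0.761 on the dish and 2.38, 2.15 and 1.69 in the gel, without overlap (log2 fold change 1.21, SE 0.31, edgeR adjusted p = 0.0198). The call was lost without rigid dish 2, rigid dish 3, soft gel 1 or soft gel 2 (adjusted p = 0.0670, 0.0747, 0.0881 and 0.0744). PCDHA4 was its only member with enough counts to be tested, at 0.449, 0.0861 and 0 CPM in rigid dish libraries and 0.617, 0.486 and 0.375 CPM in soft gel, and was not called (log2 fold change 1.37, edgeR adjusted p = 0.225). Without rigid dish 1 it was called, at a log2 fold change of 3.34 (adjusted p = 0.0221). PCDHA5, PCDHA8 and PCDHA14 had no count in any library. The other alpha genes had at most 22.3 counts in a library, the highest being PCDHA13 with 0, 3.62 and 0 in rigid dish libraries and 12.02, 22.32 and 0 in soft gel. Alpha coding genes shared 21.3% to 56.6% of their exonic bases with each other.

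The gamma cluster (chr5:141330571-141512981) had the highest summed TPM of the 3 (92.3 ± 11.7 on the dish and 89.9 ± 2.64 in the gel), and its sum did not pass the test. Its 24 genes summed to 191, 265 and 297 CPM in rigid dish libraries and 232, 235 and 253 CPM in soft gel. Rigid dish 1 lay below every other library. The log2 fold change of the sum was -0.06 (SE 0.16, 95% interval -0.42 to 0.29, edgeR adjusted p = 0.784), and it turned to 0.00666 without rigid dish 3. A change of the size seen in the beta cluster is outside that interval. Among the 22 tested gamma genes, 14 had a positive log2 fold change and 8 a negative value, with a median of 0.12.

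PCDHGC3 had the largest share of gamma counts. It is an isoform of the C type, whose promoter is used broadly rather than chosen at random. Its level was 56.3 ± 6.27 TPM in rigid dish libraries and 50.2 ± 4.20 TPM in soft gel. By mean TPM this was the second highest of all 96 genes on the rigid dish after CDH2. By counts relative to length CDH13 was ahead of it there, with a mean of 107 CPM over 2722 bases against 144 CPM over 4758 bases. In CPM PCDHGC3 was at 108, 149 and 175 on the dish and 115, 119.8 and 141 in the gel, with overlap (log2 fold change -0.20, SE 0.17, edgeR adjusted p = 0.402). Without rigid dish 1, the lowest library, it was called lower (log2 fold change -0.37, adjusted p = 0.0422). Its share of gamma counts was 56.9%, 55.9% and 59.0% in rigid dish libraries and 49.7%, 51.0% and 55.7% in soft gel, all lower (two-sided exact permutation p = 0.1, the smallest possible here).

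PCDHGA11 (chr5:141421047-141512979, plus strand) was the only gamma gene called. It was at 6.36, 10.9 and 10.9 CPM in rigid dish libraries and 4.65, 2.68 and 4.03 CPM in soft gel. Each soft gel library lay below each rigid dish library, a 2.48-fold lower level (log2 fold change -1.31, SE 0.28, edgeR adjusted p = 0.0102), and the call was kept under all alternatives run. Of the gamma genes without a call, PCDHGB2 and PCDHGA1 came closest and were named after their values were seen. PCDHGB2 was at 9.27, 15.0 and 12.4 CPM on the dish and 18.2, 17.1 and 18.1 CPM in the gel (log2 fold change 0.55, edgeR adjusted p = 0.0510), and was called without rigid dish 2 (adjusted p = 0.0486). PCDHGA1 was at 2.32, 2.32 and 1.88 CPM on the dish and 4.73, 3.61 and 2.86 CPM in the gel (log2 fold change 0.78, edgeR adjusted p = 0.0515), and was called without soft gel 3 (adjusted p = 0.0364). In both genes all soft gel libraries were the higher.

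Single gamma genes are uncertain because of their shared exons. Gamma coding genes shared 27.6% to 64.4% of their exonic bases (median 43.9%), and the 3 constant exons lie at chr5:141494807-141494865, chr5:141505393-141505481 and chr5:141510947-141512979 (GENCODE 29, hg38, plus strand). The lines below show the junction of the variable and first constant exon for PCDHGC3, for PCDHGB7, the next gene by TPM and named after its values were seen, and for PCDHGA11. The last 30 variable bases are in lower case and the first 30 constant bases in capitals.
PCDHGC3: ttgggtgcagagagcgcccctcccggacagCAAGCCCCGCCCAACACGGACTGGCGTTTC
PCDHGB7: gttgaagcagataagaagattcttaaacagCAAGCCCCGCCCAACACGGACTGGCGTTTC
PCDHGA11: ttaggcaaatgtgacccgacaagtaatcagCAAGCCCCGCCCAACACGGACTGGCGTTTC
The capitals are the same in all 3, so a read inside the constant exons cannot be given to a gene. The last 30 variable bases differed from those of PCDHGC3 at 16 positions in PCDHGB7 and at 19 in PCDHGA11. PCDHGB7 was at 18.7, 37.5 and 37.9 CPM in rigid dish libraries and 28.3, 29.6 and 30.7 CPM in soft gel (log2 fold change -0.09, edgeR adjusted p = 0.810). Rigid dish 1 was again the lowest, and without it PCDHGB7 was called lower (log2 fold change -0.36, adjusted p = 0.0369).

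**Figure D3:**
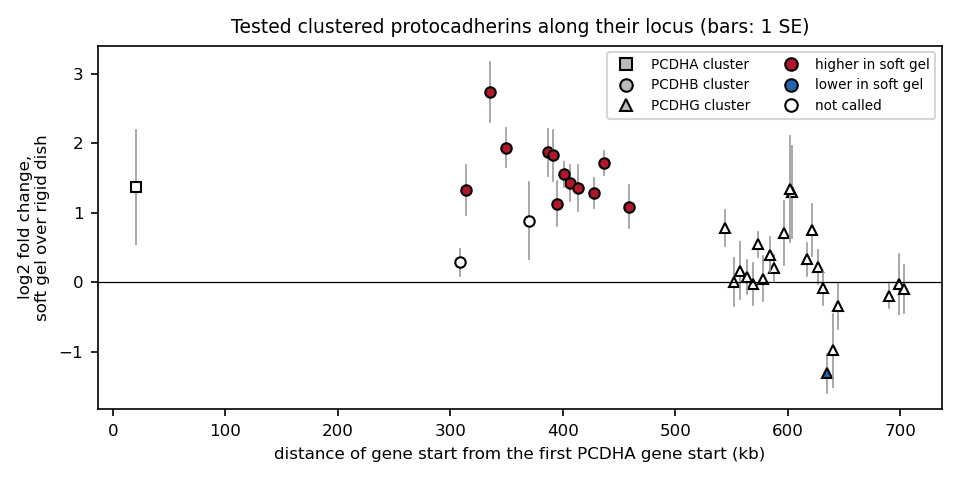
Log2 fold change, soft gel over rigid dish, of the 37 tested clustered protocadherins (vertical axis) by the distance of their start from the first PCDHA gene (kb). Bars are 1 SE, red and blue symbols passed the test and white ones did not. The PCDHB genes sit above 0 between the single tested PCDHA gene and the PCDHG genes, whose values lie on either side of 0.

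Among the non-clustered genes, the type I classical cadherins split. CDH2 (N-cadherin), the main cadherin of neural and mesenchymal cells, was the most abundant of all 96 genes, at 149 ± 15.7 TPM in rigid dish libraries and 204 ± 8.02 TPM in soft gel. It gave 363, 525 and 498 CPM on the dish and 597, 583 and 595 CPM in the gel, the soft gel libraries being close together and all higher. The difference did not pass the test (log2 fold change 0.36, SE 0.14, 95% interval 0.04 to 0.68, edgeR adjusted p = 0.0860), but passed with limma on log2(TPM + 1) (adjusted p = 0.0258). CDH2 made up 54.1% ± 4.83 of the summed TPM of CDH genes in rigid dish libraries and 58.2% ± 1.70 in soft gel (SD, n = 3 each; two-sided exact permutation p = 0.3).

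CDH4 and CDH3 fell in soft gel. CDH4 (R-cadherin, known from retina and brain; chr20:61252426-61940617, plus strand) was at 112, 156 and 176 CPM in rigid dish libraries and 67.4, 59.5 and 76.3 CPM in soft gel. The groups were far apart, a 2.19-fold lower level (log2 fold change -1.13, SE 0.17, edgeR adjusted p = 0.00293). CDH4 dropped from 10.7% ± 1.36 to 4.10% ± 0.60 of summed CDH TPM (SD, n = 3 each; two-sided exact permutation p = 0.1, the smallest possible here). CDH3 (P-cadherin, of epithelia and placenta; chr16:68636189-68722616, plus strand) was at 12.5, 11.4 and 11.3 CPM on the dish and 5.59, 2.59 and 4.92 CPM in the gel, and fell by 1.43 on the log2 scale (SE 0.26, edgeR adjusted p = 0.00539). Both calls were kept under all alternatives run. CDH1 (E-cadherin), the defining cadherin of epithelia, was at 5, 6 and 0 counts in rigid dish libraries and 0, 2 and 3 in soft gel, too few to test. CDH15, the muscle cadherin, had at most 7 counts in a library.

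Of the 13 type II cadherins 7 were tested, and CDH6 and CDH10 rose. These made up 28.6% of the tested type II genes, where 28.6% of all tested genes were called. CDH6 (K-cadherin, known from kidney and the neural crest; chr5:31193750-31329146, plus strand) was at 77.9, 58.1 and 52.5 CPM in rigid dish libraries and 119, 123 and 97.7 CPM in soft gel. The highest rigid dish library was below the lowest soft gel library (log2 fold change 0.85, SE 0.16, edgeR adjusted p = 0.00675), although limma on log2(TPM + 1) did not call it (adjusted p = 0.0665). CDH10, a brain cadherin (chr5:24487100-24644978, minus strand), was at 14.8, 7.15 and 7.66 CPM on the dish and 22.6, 24.5 and 19.0 CPM in the gel, a 2.23-fold rise (log2 fold change 1.15, SE 0.27, edgeR adjusted p = 0.0141). Rigid dish 1 was the highest of its group, and the call did not hold without soft gel 1 or 2 (adjusted p = 0.0519 and 0.0646) or rigid dish 2 (0.0587). The summed TPM of type II genes was 66.0, 34.9 and 30.4 in rigid dish libraries and 89.2, 83.3 and 64.3 in soft gel, an overlap through rigid dish 1 (two-sided exact permutation p = 0.2).

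The other tested type II genes were not called. CDH11 (OB-cadherin, of mesenchymal cells) was at 7.29, 6.07 and 5.10 CPM in rigid dish libraries and 10.4, 9.53 and 7.41 CPM in soft gel, all higher (log2 fold change 0.57, edgeR adjusted p = 0.0637), and was called without rigid dish 1 or soft gel 3 (adjusted p = 0.0255 and 0.0458). CDH12 had a log2 fold change of 0.91 (edgeR adjusted p = 0.111) and CDH18 one of 0.83 (adjusted p = 0.123), both near 1 to 3 CPM. CDH12 was called without soft gel 3 (adjusted p = 0.0452) and CDH18 without rigid dish 1 (adjusted p = 0.0283). CDH8 had a log2 fold change of 0.22 (edgeR adjusted p = 0.600), and CDH24 one of -0.05 (adjusted p = 0.882) that turned to 0.17 without rigid dish 1. CDH5 (VE-cadherin), the endothelial member, had 0, 0 and 1 counts on the dish and 0, 3 and 1 in the gel. CDH20 had 8, 3 and 6 counts on the dish and 8, 5 and 6 in the gel, and CDH9 none in any library.

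CDH13 (T-cadherin), which is tied to the membrane by a lipid anchor and has no cytoplasmic tail, was the third most abundant of the 96 genes on the rigid dish (47.3 ± 3.21 TPM). It was at 88.5, 118 and 116 CPM in rigid dish libraries and 87.1, 95.7 and 105 CPM in soft gel, with overlap (log2 fold change -0.16, 95% interval -0.47 to 0.15, edgeR adjusted p = 0.398). Its mean TPM went the other way, to 50.1 ± 5.47. CDH23, which forms the tip links of inner ear hair cells, had 0, 2 and 2 counts in rigid dish libraries and 14, 17 and 8 in soft gel. It missed the filter on low counts. Fitted without that filter it was higher in soft gel (log2 fold change 3.10, edgeR adjusted p = 0.0061), and the authors' deposited table also called it (adjusted p = 0.0229). CDH17 had at most 5 counts in a library.

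**Figure D4:**
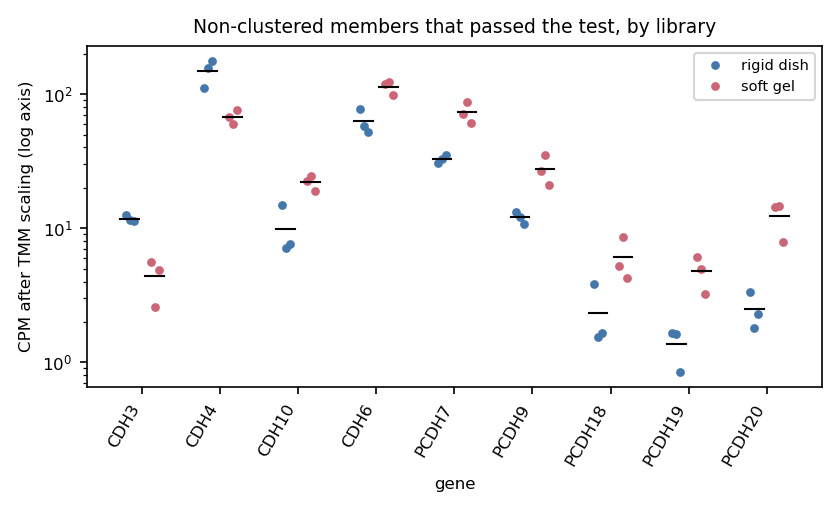
CPM after TMM scaling (log axis) of the 9 non-clustered genes that passed the test. Points are libraries and black lines are group means. No gene has overlapping groups, and CDH3 and CDH4 are the genes with lower soft gel values.

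Among delta-1 protocadherins, PCDH7 and PCDH9 rose. PCDH7 (chr4:30720415-31146805, plus strand) was at 30.4, 32.8 and 35.1 CPM in rigid dish libraries and 71.3, 87.2 and 60.7 CPM in soft gel. The rigid dish libraries were close together, and all soft gel libraries were well above them (log2 fold change 1.16, SE 0.15, edgeR adjusted p = 0.00138). PCDH9 (chr13:66302834-67230445, minus strand) was at 13.3, 12.1 and 10.8 CPM on the dish and 26.8, 35.4 and 21.0 CPM in the gel, also apart (log2 fold change 1.202, SE 0.20, edgeR adjusted p = 0.00369). Both calls were kept under all alternatives run. PCDH11X was the most abundant protocadherin outside the clusters by mean TPM, 40.0 ± 14.4 in rigid dish libraries and 42.0 ± 10.9 in soft gel. By counts it was below PCDH10, at a mean of 67.8 and 69.8 CPM over 9179 bases against 142 and 168 CPM over 8510 bases. Its TPM was 23.3 in rigid dish 2 and 29.4 in soft gel 2, but 48.2 to 48.4 in the other libraries. Its CPM differed little (log2 fold change 0.04, 95% interval -0.23 to 0.32, edgeR adjusted p = 0.814), with a sign that turned under other scalings (-0.00065 with DESeq2 size factors) and without rigid dish 1 (-0.0587). Of its 75-base words 42.7% were also in another of the 96 genes, which include its near-identical Y-linked copy, so reads of the pair could be split. PCDH1 was not called (log2 fold change 0.20, edgeR adjusted p = 0.586), and its sign turned without rigid dish 1 (-0.0526) or soft gel 3 (-0.0794).

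Among delta-2 protocadherins, PCDH19 and PCDH18 rose and the more abundant PCDH10 and PCDH17 were not called. PCDH19, mutated in an epilepsy that mainly affects females (chrX:100291644-100410273, minus strand), was at 1.64, 1.64 and 0.851 CPM in rigid dish libraries and 6.08, 4.99 and 3.23 CPM in soft gel. Every soft gel library was higher, on average 3.45-fold (log2 fold change 1.78, SE 0.34, edgeR adjusted p = 0.00610), and the call was kept under all alternatives run. PCDH18 (chr4:137518918-137532494, minus strand) was at 3.81, 1.55 and 1.66 CPM on the dish and 5.26, 8.68 and 4.26 CPM in the gel, and rigid dish 1 came close to the soft gel libraries (log2 fold change 1.36, SE 0.39, edgeR adjusted p = 0.0310). Its call was lost without rigid dish 2 or 3 (adjusted p = 0.108 and 0.0962) and without soft gel 1 or 2 (adjusted p = 0.0698 and 0.139). PCDH10 was at 144, 140.4 and 140.5 CPM on the dish and 179, 177 and 148 CPM in the gel, all higher but by little (log2 fold change 0.25, SE 0.11, edgeR adjusted p = 0.122). PCDH17 had a log2 fold change of -0.11 (edgeR adjusted p = 0.557). PCDH8 had no count in any library.

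PCDH20 had the largest rise of the non-clustered genes. It lies at chr13:61409685-61415522, minus strand, and was at 3.36, 1.81 and 2.28 CPM in rigid dish libraries and 14.3, 14.6 and 7.92 CPM in soft gel. The lowest soft gel library was far above the highest rigid dish library, and the mean rise was 4.92-fold (log2 fold change 2.30, SE 0.31, edgeR adjusted p = 0.00160). The call was kept under all alternatives run. A second annotated gene, AL592490.1, covers 95.8% of its exonic bases on the same strand, but that row held only 2.58 counts, all in soft gel 2. PCDH15, the partner of CDH23 in tip links, was not called (log2 fold change 0.07, edgeR adjusted p = 0.814), and its sign turned without rigid dish 3 (-0.17) or soft gel 1 (-0.0133). PCDH12, known from endothelium, was not called either, with a mean of 0.762 ± 0.314 and 1.14 ± 0.510 CPM (SD, n = 3 each; log2 fold change 0.60, edgeR adjusted p = 0.348).

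**Figure D5:**
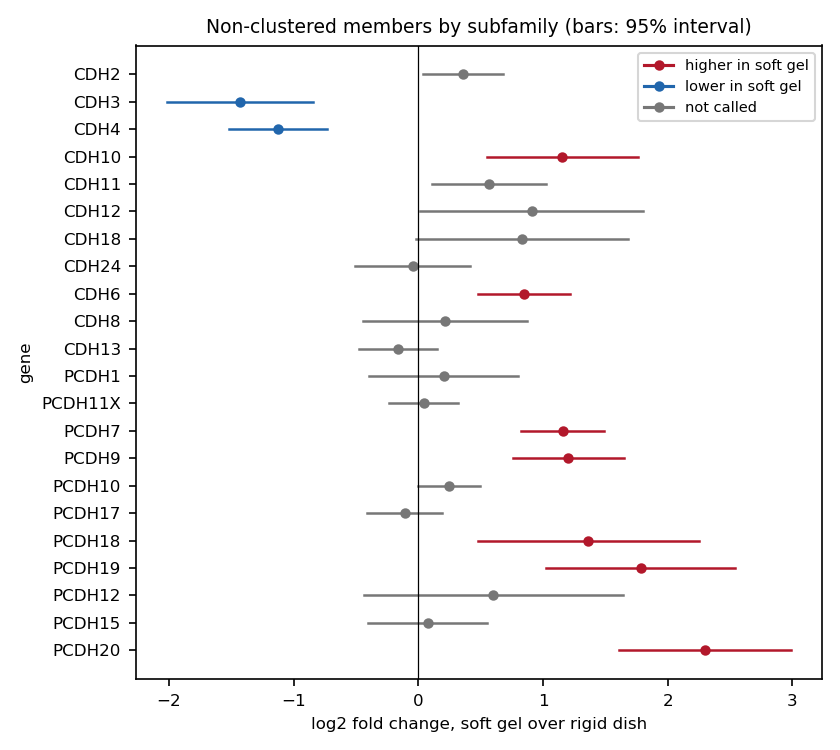
Log2 fold change, soft gel over rigid dish, of 22 tested non-clustered genes in the order type I, type II, other cadherins, delta-1, delta-2 and other protocadherins. Bars are 95% intervals of edgeR's fit, colours give the call. CDH3 and CDH4 were called lower, and CDH6, CDH10, PCDH7, PCDH9, PCDH18, PCDH19 and PCDH20 were called higher. The intervals of CDH2, CDH11 and CDH12 also lie right of 0, without a call.

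The 36 untested genes had at most 25.2 counts in any library, and 7 of them had none in all 6. Those with a mean of at least 0.1 TPM in a group were CDH1, CDH17, CDH20, CDH23, PCDHA12, PCDHA13, PCDHAC2, PCDHB12, PCDHGB5 and PCDHGB9P. PCDHB12, the untested beta gene with the highest count, had 4.25, 0 and 1.03 counts in rigid dish libraries and 24, 22.41 and 1 in soft gel. Soft gel 1 and 2 were high and soft gel 3 was within the rigid dish range. Fitted without the filter on low counts it was called higher (edgeR adjusted p = 0.0022), as were PCDHA13 (0.0188), PCDHB6 (0.0323) and PCDHA7 (0.0390), the last pair named after their values were seen. The rigid dish libraries held no count of PCDHB6 or PCDHA7. Of the 96 genes, 22 had an adjusted p below 0.05 in the authors' deposited table, 19 higher and 3 lower, and 20 of them were also called here. PCDHB3 and PCDHB16 were called here alone, and CDH23 and PCDHB12 passed in the authors' deposited table alone. That table marks 18 of its 22 as significant, and all 18 also have an absolute log2 fold change of 1 or more in it.

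The partners of these receptors were read from lists chosen for this purpose. Of 16 tested catenins and adherens junction adaptors 1 rose and 4 fell, beside 15.4% of all tested genes higher and 13.2% lower (28.6% called in all). The median log2 fold change was -0.17, beside 0.05 for all tested genes. CTNNA1 (alpha-catenin, which links beta-catenin to actin) was at 437, 524 and 526 CPM in rigid dish libraries and 358, 339 and 365 CPM in soft gel, and fell by 0.49 on the log2 scale (edgeR adjusted p = 0.0139). JUP (plakoglobin) fell by 0.45 (adjusted p = 0.0394), VCL (vinculin) by 0.30 (adjusted p = 0.0455) and CTNNBIP1, which blocks beta-catenin from its transcription factors, by 0.64 (adjusted p = 0.00619), all on the log2 scale in edgeR's fit. CTNNA2, the neural alpha-catenin, was at 5.38, 8.22 and 7.16 CPM on the dish and 13.98, 14.8 and 12.3 CPM in the gel and rose (log2 fold change 0.99, edgeR adjusted p = 0.00656). Limma on log2(TPM + 1) gave it the opposite sign, -0.71 (adjusted p = 0.157). CTNNB1 (beta-catenin) was not called (log2 fold change -0.11, adjusted p = 0.464), and was named after its value was seen. CTNNA1, JUP and VCL lost their calls in the fits that lacked soft gel 1, soft gel 2 or rigid dish 2, at edgeR adjusted p up to 0.0698, 0.138 and 0.162, and the last pair also without rigid dish 3. The fits that lacked soft gel 1, soft gel 2 or rigid dish 2 left 2 calls in the list. VCL also lost its call without the filter on low counts (edgeR adjusted p = 0.0626).

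Of 14 tested relatives in the wider cadherin superfamily 1 rose and 3 fell (median log2 fold change -0.28), a share equal to the 28.6% of all tested genes that were called. FAT4, a giant cadherin of planar cell polarity, was at 14.9, 11.4 and 11.7 CPM in rigid dish libraries and 21.5, 23.1 and 18.7 CPM in soft gel and rose (log2 fold change 0.73, edgeR adjusted p = 0.0108). FAT2 fell by 1.33 (adjusted p = 0.00354), CELSR1 by 0.58 (adjusted p = 0.0351) and CLSTN1 by 0.34 (adjusted p = 0.0390) on the log2 scale in the same fit. FAT2 had the opposite sign in limma on log2(TPM + 1), 1.16 (adjusted p = 0.515). FAT4, CELSR1 and CLSTN1 lost their calls in the fits that lacked soft gel 1, soft gel 2 or rigid dish 2, at edgeR adjusted p up to 0.0604, 0.132 and 0.151, and the last pair also without rigid dish 3. The list then held 1, 2, 1 and 2 calls without rigid dish 2, soft gel 1, soft gel 2 and rigid dish 3.

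Of 11 tested enzymes that process or cleave cadherins ADAM10 alone was called, where 28.6% of all tested genes were. ADAM10, a membrane protease that sheds the outer part of N-cadherin and of gamma protocadherins, was at 123, 104 and 92.8 CPM in rigid dish libraries and 211, 211 and 132 CPM in soft gel. All soft gel libraries were higher, soft gel 3 the least (log2 fold change 0.79, SE 0.19, edgeR adjusted p = 0.0158). The call was lost without rigid dish 2 or 3 (adjusted p = 0.0656 and 0.0624) and without soft gel 1 or 2 (0.0709 and 0.0742), which left the list without a call. Without rigid dish 1 there were 2 calls. The median of the list was -0.09.

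The factors known to act on clustered protocadherin promoters include CTCF and cohesin, which loop enhancers to them, and DNA methylation, which silences them. Of 14 tested factors 2 fell and 12 were not called (median log2 fold change -0.05), where 13.2% of all tested genes fell. TRIM28, a corepressor, was at 517, 504 and 507 CPM in rigid dish libraries and 318, 292 and 376 CPM in soft gel (log2 fold change -0.63, SE 0.12, edgeR adjusted p = 0.00583). DNMT1, the maintenance DNA methyltransferase, was at 323, 269 and 256 CPM on the dish and 195, 174 and 204 CPM in the gel (log2 fold change -0.57, SE 0.12, edgeR adjusted p = 0.0113). In both genes all soft gel libraries were lower, but DNMT1 lost its call without soft gel 2 (adjusted p = 0.0597) and with limma on log2(TPM + 1) (adjusted p = 0.244). Without soft gel 3, 5 factors were called, 2 higher and 3 lower. CTCF had a log2 fold change of -0.21 (adjusted p = 0.153), and was named after its value was seen.

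Of 14 tested cytoplasmic partners of protocadherins 1 rose and 3 fell (median log2 fold change -0.17), again equal to the 28.6% of all tested genes that were called. WASF2, a WAVE protein that activates actin branching, was at 99.2, 126 and 128 CPM in rigid dish libraries and 63.6, 61.4 and 71.6 CPM in soft gel and fell by 0.85 on the log2 scale (SE 0.13, edgeR adjusted p = 0.00306), a call kept under all alternatives run. CYFIP1 fell by 0.40 (adjusted p = 0.0208) and CYFIP2 by 0.42 (adjusted p = 0.0180), while NCKAP1 rose by 0.47 (adjusted p = 0.0461) on the same scale in edgeR's fit. All 3 are subunits of the WAVE complex. Their calls were lost in the fits that lacked soft gel 1, soft gel 2 or rigid dish 2, with edgeR adjusted p up to 0.0975, 0.0928 and 0.178, which left WASF2 alone. NCKAP1 also lost its call without rigid dish 3 (adjusted p = 0.190) and with DESeq2 size factors (adjusted p = 0.0544).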

How the data were processed

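Total RNA of DBTRG cells was sequenced from 3 rigid dish and 3 soft gel libraries. Per the labels, TRIzol was used for extraction and a TruSeq RNA kit for the libraries. HISAT2, HTSeq and hg38 are named in the submitters' processing notes, and no source used here gives their roles or the strand setting. The authors deposited estimated counts, some with decimals, and TPM values per gene and library. In the comparison the authors deposited, each gene has its log2 fold change, the linear fold (a ratio), the p-value and its adjusted form. Deposited TPM moved apart from counts per kb in some genes, so libraries were compared by counts.

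The genes described and the lists were chosen with earlier results of these data known. Estimated counts were rounded, filtered with filterByExpr (minimum count 10), scaled by TMM and tested over 16098 genes by the quasi-likelihood method of edgeR (version 4.0.16, in R 4.3.3, with limma 3.58.1), with Benjamini-Hochberg adjustment and a threshold of 0.05. SE was taken from the test statistic, and 95% intervals from the t distribution with the fit's degrees of freedom. In a second fit the rows of each protocadherin cluster were replaced by their sum. Limits from counts cover counting error only. The 11 alternatives were DESeq2 size factors, no filter, a replicate block, each library left out, DESeq2 (1.42.0) and limma on log2(TPM + 1). Truncated counts were also fitted, but were read only for the number of clustered genes called (14, against 13). Named were all tested non-clustered genes but 1 Y-linked gene, whose values are not reported here, called clustered genes, the top gene of each cluster by TPM, called list genes, and untested genes with at least 0.1 TPM. Others are marked in the text. Gene models came from GENCODE 29, and promoters from RefSeq (GRCh38.p14). 1 marker gene is not reported here.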

Additional observations from a re-analysis of the deposited data

How the results depend on the processing

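Counts of called genes among the 96 stayed within 1.5 times of 22 under all 11 alternatives (16 to 30), and no call among them changed sign. Leaving out each library gave 2 to 6 calls among catenins and adaptors, 1 to 6 in the wider superfamily, 0 to 2 among cleavage enzymes, 1 to 5 among promoter factors and 1 to 5 among cytoplasmic partners, against 5, 4, 1, 2 and 4. It moved the PCDHA sum over log2 fold changes of 1.01 to 1.31 and the PCDHG sum over -0.23 to 0.00666. Limma on log2(TPM + 1) gave 3 calls among catenins, 0 in the superfamily and 1 among cytoplasmic partners, and opposite signs for CDH24 (0.15), CDH13 (0.0759), PCDHGB7 (0.0403), CTNNA2 (-0.71) and FAT2 (1.16). It also lost the calls of CDH6, CDH10, PCDH18, PCDHB3 and PCDHB16, and, in the lists of other genes, JUP, VCL, FAT4, CELSR1, CLSTN1, NCKAP1, CYFIP1, CYFIP2 and DNMT1. Among promoter factors the fit without the filter called 5 and DESeq2 called 4. PCDH11X turned to -0.00065 with DESeq2 size factors, -0.0205 without the filter and -0.00047 with DESeq2. Values with 1 library left out changed sign for CDH24 (-0.27 to 0.17), PCDH15 (-0.17 to 0.27), PCDH1 (-0.0794 to 0.34), PCDH11X (-0.0587 to 0.0698) and PCDHGB7 (-0.36 to 0.0565). The cause was not tested.

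Whether libraries with the same number were paired is not stated. The correlations of their deviations from the group means were 0.217, 0.009 and 0.307. Rigid dish 1 and rigid dish 3 correlated best with the soft gel library of the same number, and rigid dish 2 with soft gel 3 (0.042). With a replicate block 26 of the 96 genes were called instead of 22, 8 catenins instead of 5 and 5 promoter factors instead of 2, and CDH2 (0.0288), CDH11 (0.0210), PCDHGA1 (0.0352) and PCDHGB2 (0.0182) passed the threshold (edgeR adjusted p). With 3 libraries a group, genes below about 1 CPM carried wide intervals, and reads in shared exons limit what single alpha and gamma genes show.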
